A study of Mus musculus with 6 samples.

Results

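The 10 genes described here carry the bone morphogenetic protein (BMP) signal: the ligand Bmp4, the receptors Bmpr1a, Acvr1 and Bmpr2, the decoy receptor Bambi, the transducer Smad1, the inhibitor Smad6, and the target genes Id1, Id2 and Id3. They were taken by name, as array probe sets annotated with exactly 1 gene symbol, and are 10 of the 18193 genes so annotated. They have 23 of the 45037 probe sets tested: 6 for Bmpr1a, 3 each for Acvr1, Bmpr2, Smad1 and Id2, and 1 each for the other 5 genes. The probe set with the highest mean over all arrays stands for its gene (its main probe set), and the others are given beside it. No probe set annotated with several symbols named any of the 10.

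The cells were mPAC L20, an established mouse pancreatic duct line. In the shAtoh8 group (3 arrays) an adenovirus brought in a short hairpin that targets Atoh8 (Math6 in older naming, also used in the labels), a transcription factor of the basic helix-loop-helix class. In the shControl group (3 arrays) the hairpin was a scrambled one. Both groups then received a further adenovirus that expresses Neurog3, the factor that starts endocrine differentiation, from a CMV promoter, each virus at a multiplicity of infection of 40, and were cultured for another 44 to 46 h. No array came from cells without Neurog3 or without virus, so every difference below is between hairpins in infected, Neurog3-expressing cells of 1 line. Values are log2 signals, and a fold change is shAtoh8 minus shControl on that scale.

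BMP ligands bind a pair of receptor serine/threonine kinases: a type II receptor such as Bmpr2 phosphorylates a type I receptor such as Bmpr1a (ALK3) or Acvr1 (ALK2), which phosphorylates Smad1 and its relatives. These join Smad4, enter the nucleus and switch on the Id genes, and also Smad6 and Bambi, which damp the signal. Id proteins have a helix-loop-helix but no DNA-binding region, and hold E proteins such as Tcf3 away from their tissue-specific partners, the class to which Neurog3 belongs. In the pancreas BMP signalling is known for its part in early patterning and in the growth of the epithelium.

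The array medians lay between 5.49 and 5.56. The replicate 2 array of shAtoh8 had a lower mean of the hybridisation spikes (9.48, against 9.85 to 10.1 on the other 5) and its actin signal dropped more towards the 5' end, by 0.354 in log2 units (0.107 to 0.202 on the others). Atoh8 itself read 7.83, 7.90 and 7.37 in shAtoh8 replicates 1, 2 and 3, against 8.75, 8.29 and 7.52 in shControl. This difference of -0.49 ± 0.30 (SE) did not pass (limma adjusted p = 0.573, and 0.157 with the replicate block). Within replicates 1, 2 and 3 Atoh8 differed by -0.92, -0.39 and -0.15. Neurog3 was highest in replicate 1 and lowest in replicate 3 of each group on its main probe set (6.78, 6.06 and 5.33 in shAtoh8, against 7.45, 6.64 and 5.79 in shControl). There it read -0.57 ± 0.48 (SE; limma adjusted p = 0.706, and 0.0330 with the replicate block), lower in shAtoh8 in all 3 pairs. That call was lost with the block as a random effect, at an estimated correlation (adjusted p = 0.495). Its other probe set read 0.18 ± 0.17, higher in shAtoh8 in all 3 pairs (adjusted p = 0.751, and 0.400 with the block), so the probe sets differ in sign. All 7 measured duct epithelial markers had a mean above the median of all probe sets (5.52), and 0 of 5 endothelial, 1 of 6 fibroblast, 1 of 3 acinar and 3 of 4 leukocyte markers did. The mean of the leukocyte markers was 5.55 to 5.83 in shAtoh8 and 5.65 to 5.82 in shControl, near that median. The mean of the duct markers was 11.35 to 11.46 in shAtoh8 and 11.55 to 11.64 in shControl, without overlap. Their median fold change was -0.07. Among them Epcam read -0.73 ± 0.19 (limma adjusted p = 0.145, 0.0463 with the replicate block and 0.0620 with it as a random effect). Krt7 read -0.25 ± 0.09. Krt8 was higher in shAtoh8 (0.06 ± 0.07), and Krt18, Krt19, Cdh1 and Sox9 read between -0.14 and -0.03. The part of this in the results below was not tested, and in such bulk RNA fewer cells of a type and less RNA per cell cannot be told apart.

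On the main probe sets Bambi was higher and Bmpr2 lower in shAtoh8, and the other 8 genes differed by at most 0.33 on the log2 scale. Neither difference passed over all probe sets in limma fitted without pairing (adjusted p = 0.0529 for Bambi and 0.0536 for Bmpr2), so 0 of the 10 genes were called at an adjusted p under 0.05, with 2 at an unadjusted p under 0.05, where 17.5% of all genes were. Of all genes 1.15% were called by the adjusted rule on their main probe sets, and of all probe sets 0.802%. A second fit took the replicate number as a block and compared shAtoh8 with shControl within each number. There Bambi rose (limma adjusted p = 0.0278) and Bmpr2 fell (0.0459), 2 of 10 genes where 4.67% of all genes passed. For Bmpr2 the block lowered neither the SE (0.14 without it, 0.15 with it) nor the unadjusted limma p (5.1e-04 and 1.3e-03). The adjustment is milder where more probe sets have small p-values, and 1541 passed with the block, against 361 without it. The groups did not overlap for Bambi and Bmpr2, against 24.0% of all genes. The median fold change of the 10 was -0.06, with 4 positive and 6 negative, and the median of all genes was 0.01. Beyond the main probe sets, 1 of Id2 read 0.50 and 1 of Smad1 -0.37, and those of Bmpr2 read -0.11 and -0.0038.

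**Figure D1:**
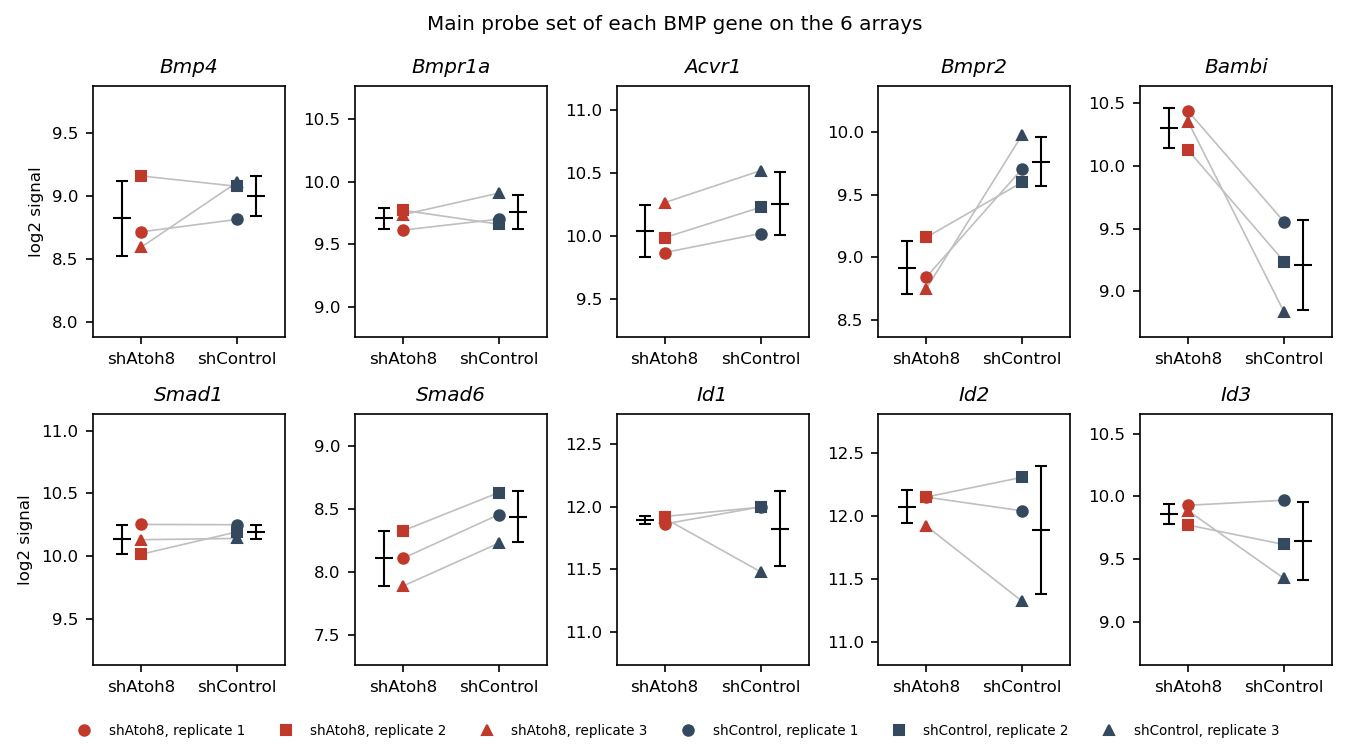
Log2 signal of the main probe set of each of the 10 genes (vertical axis, every panel spanning 2 log2 units) in shAtoh8 and shControl, with a grey line joining arrays of the same replicate number and black bars for mean ± SD (n = 3). Bambi lies higher and Bmpr2 lower in shAtoh8 without overlap, and the Id genes are spread by a low shControl replicate 3.

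Bmp4, the ligand, read 8.72, 9.16 and 8.59 in shAtoh8 replicates 1, 2 and 3, against 8.81, 9.08 and 9.11 in shControl. The groups overlapped, and replicate 2 went against the other 2 pairs. The fold change was -0.18 ± 0.16 (SE), with a 95% confidence interval of -0.56 to 0.20 and a limma adjusted p of 0.738. It read -0.35 without shAtoh8 replicate 2 and -0.06 without shAtoh8 replicate 3.

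Bmpr2, the type II receptor for BMPs, read 8.84, 9.16 and 8.75 in shAtoh8, against 9.71, 9.60 and 9.98 in shControl. Every shAtoh8 array was below every shControl array. The means were 8.92 ± 0.21 in shAtoh8 and 9.76 ± 0.20 in shControl (SD, n = 3 each), a fold change of -0.84 ± 0.14 (SE), or 1.79-fold lower. The differences within replicates 1, 2 and 3 were -0.86, -0.44 and -1.23. This rests on 1 of its 3 probe sets: the second read 6.06, 6.04 and 6.38 in shAtoh8, against 6.13, 6.11 and 6.56 in shControl (-0.11 ± 0.15), and the third was dim in both groups (4.69 to 5.01 in shAtoh8, against 4.73 to 5.02 in shControl). As the mean of the 3 probe sets Bmpr2 read -0.32 (adjusted p = 0.117). The stretch of Bmpr2 RNA behind each of the 3 was not analysed here.

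Bmpr1a, a type I receptor, read 9.61, 9.77 and 9.74 in shAtoh8, against 9.70, 9.66 and 9.91 in shControl on its main probe set (-0.05 ± 0.10 SE, adjusted p = 0.904). The groups overlapped, and the 95% confidence interval ran from 0.825-fold to 1.13-fold. The other 5 probe sets read between -0.10 and 0.22, 2 of them higher and 1 lower in shAtoh8 within all 3 replicate numbers. The lower one was dim, and its groups did not overlap (4.343, 4.389 and 4.314 in shAtoh8, against 4.391, 4.464 and 4.505 in shControl; adjusted p = 0.654). The larger of the higher ones read 8.18, 7.92 and 8.27 in shAtoh8, against 7.99, 7.72 and 8.00 in shControl (0.22 ± 0.13, adjusted p = 0.544, and 0.223 with the block). The mean of the 6 probe sets was 0.03, so the sign of Bmpr1a depends on the probe sets.

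Acvr1, the other type I receptor, was lower in shAtoh8 within every replicate number on both of its brighter probe sets, without passing. The main one read 9.87, 9.98 and 10.26 in shAtoh8, against 10.02, 10.23 and 10.52 in shControl. In both groups replicate 1 was lowest and replicate 3 highest, so the groups overlapped while the pairs did not cross, with differences of -0.15, -0.24 and -0.25. The fold change was -0.22 ± 0.16 (SE; limma adjusted p = 0.647, and 0.228 with the block). It read -0.33 without shControl replicate 1 and -0.08 without shControl replicate 3. The second probe set read -0.25 ± 0.21 and the third, dim at 4.07 to 4.26 on all arrays, 0.02 ± 0.09.

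Bambi, a receptor-like protein without a kinase that blocks BMP and TGF-beta receptors, had the largest difference of the 10. It read 10.43, 10.12 and 10.35 in shAtoh8, against 9.55, 9.24 and 8.84 in shControl. Every shAtoh8 array was above every shControl array, and shControl replicate 3 was the lowest. The means were 10.30 ± 0.16 in shAtoh8 and 9.21 ± 0.36 in shControl (SD, n = 3 each), a fold change of 1.09 ± 0.18 (SE) or 2.13-fold higher, with a 95% confidence interval of 1.59-fold to 2.87-fold. Within replicates 1, 2 and 3 the differences were 0.88, 0.89 and 1.52. Its fold change ranked 36 from the highest among the 18193 genes. An exact permutation test over 3 arrays against 3 cannot give a p below 0.1, which Bambi and Bmpr2 both reached. Bambi has a single probe set, and that of a related pseudogene, Bambi-ps1, was dim (4.65, 4.57 and 4.59 in shAtoh8, against 4.53, 4.32 and 4.65 in shControl). Whether the Bambi probe set also reads the pseudogene was not analysed.

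Both calls with the block were lost without replicate 1 or replicate 3. Without both arrays of replicate 1, 2 or 3, fits chosen after the data were seen, Bambi read 1.201, 1.198 and 0.88 with adjusted p-values of 0.111, 0.0124 and 0.103, and Bmpr2 read -0.83, -1.04 and -0.65 with 0.184, 9.56e-03 and 0.189. The count over all probe sets in these fits was 0, 1779 and 0, so no probe set at all passed without replicate 1 or 3.

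**Figure D2:**
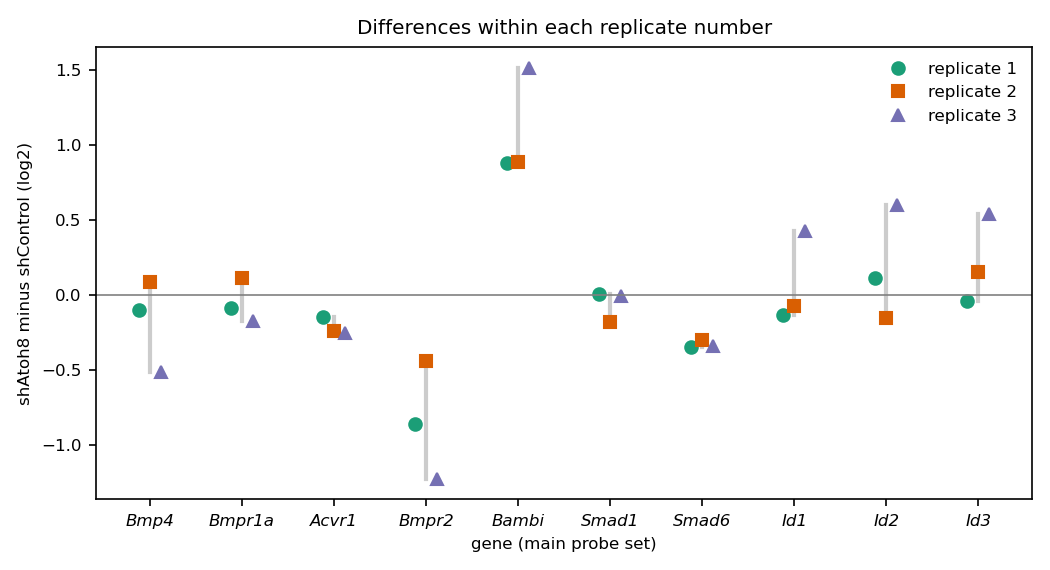
Difference of the main probe set, shAtoh8 minus shControl on the log2 scale (vertical axis), within replicate numbers 1, 2 and 3 for each of the 10 genes, with a grey bar from the lowest to the highest of the 3. Bambi is positive and Bmpr2, Acvr1 and Smad6 are negative in all 3, with Smad6 between -0.35 and -0.30.

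The 3 genes whose profile over the 6 arrays was most like that of Bambi were Dpyd, Cmbl and Cpped1, among 11511 genes with a main probe set above the median. Dpyd encodes dihydropyrimidine dehydrogenase, which breaks down uracil and thymine. The measure was the root mean squared difference of the values after each gene was centred on its own mean, and it was 0.0755, 0.0964 and 0.110. Dpyd read 6.72, 6.42 and 6.52 in shAtoh8, against 5.96, 5.61 and 5.15 in shControl. Like Bambi, each was lowest in shControl replicate 3, a likeness that follows from how these genes were picked.

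Smad1, the transducer, read 10.25, 10.01 and 10.13 in shAtoh8, against 10.25, 10.19 and 10.14 in shControl (-0.06 ± 0.09 SE, adjusted p = 0.857). The groups overlapped, and the interval ran from -0.27 to 0.15. Its second probe set gave the same picture (-0.07 ± 0.09). The third read 8.81, 7.72 and 8.61 in shAtoh8, against 8.82, 8.70 and 8.74 in shControl. The fold change there was -0.37 ± 0.26 (SE, limma adjusted p = 0.635), with differences of -0.0037, -0.98 and -0.13 within replicates 1, 2 and 3. The low value is that of shAtoh8 replicate 2, the array with the lower spikes and the larger actin drop. Whether the quality of that array played a part was not tested.

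Smad6, which inhibits type I receptors and Smad1, was lower in shAtoh8 by nearly the same amount within each replicate number. It read 8.11, 8.33 and 7.89 in shAtoh8, against 8.46, 8.63 and 8.23 in shControl. The groups overlapped, because replicate 2 was highest and replicate 3 lowest in each, but the differences were -0.35, -0.30 and -0.34. The fold change was -0.33 ± 0.15 (SE; limma adjusted p = 0.380), or 1.26-fold lower. With the block the SE was 0.08 and the adjusted p 0.0831, which still missed the threshold. Counting Smad6 with Acvr1, Bambi and Bmpr2, 4 of the 10 genes had a difference of 1 direction within all 3 replicate numbers, where 45.5% of all genes did.

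The Id genes showed no difference beyond the spread of shControl. Id1 read 11.86, 11.92 and 11.91 in shAtoh8, against 11.997, 11.995 and 11.48 in shControl. Id2 read 12.15, 12.15 and 11.92 in shAtoh8, against 12.04, 12.31 and 11.32 in shControl. Id3 read 9.93, 9.77 and 9.89 in shAtoh8, against 9.97, 9.62 and 9.35 in shControl. In all 3 genes shControl replicate 3 was the lowest of the 6 arrays, and the SD was 0.03, 0.13 and 0.08 in shAtoh8, against 0.30, 0.51 and 0.31 in shControl.

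The fold changes of Id1, Id2 and Id3 were 0.07 ± 0.15, 0.18 ± 0.24 and 0.22 ± 0.16 (SE), with limma adjusted p-values of 0.908, 0.832 and 0.642. Their 95% confidence intervals ran from 0.83-fold to 1.33-fold for Id1, from 0.77-fold to 1.67-fold for Id2 and from 0.90-fold to 1.50-fold for Id3, so 3 arrays a group leave a rise of up to those sizes within the interval. Without shControl replicate 3 the main probe sets read -0.10, -0.10 and 0.07, so on these the sign of Id1 and Id2 rested on that array. The same array had the lowest Bambi, and within replicate 3 alone Id1, Id2 and Id3 differed by 0.43, 0.60 and 0.54, while the differences were -0.14, 0.11 and -0.04 within replicate 1 and -0.07, -0.16 and 0.15 within replicate 2.

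The other 2 probe sets of Id2 had the same sign. The second read 0.20 ± 0.23 (SE), and the dimmest read 7.32, 7.03 and 6.96 in shAtoh8, against 7.12, 6.66 and 6.04 in shControl (0.50 ± 0.26). The dimmest one was higher within all 3 replicate numbers, by 0.20, 0.37 and 0.92, and did not pass (limma adjusted p = 0.474, and 0.141 with the block).

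**Figure D3:**
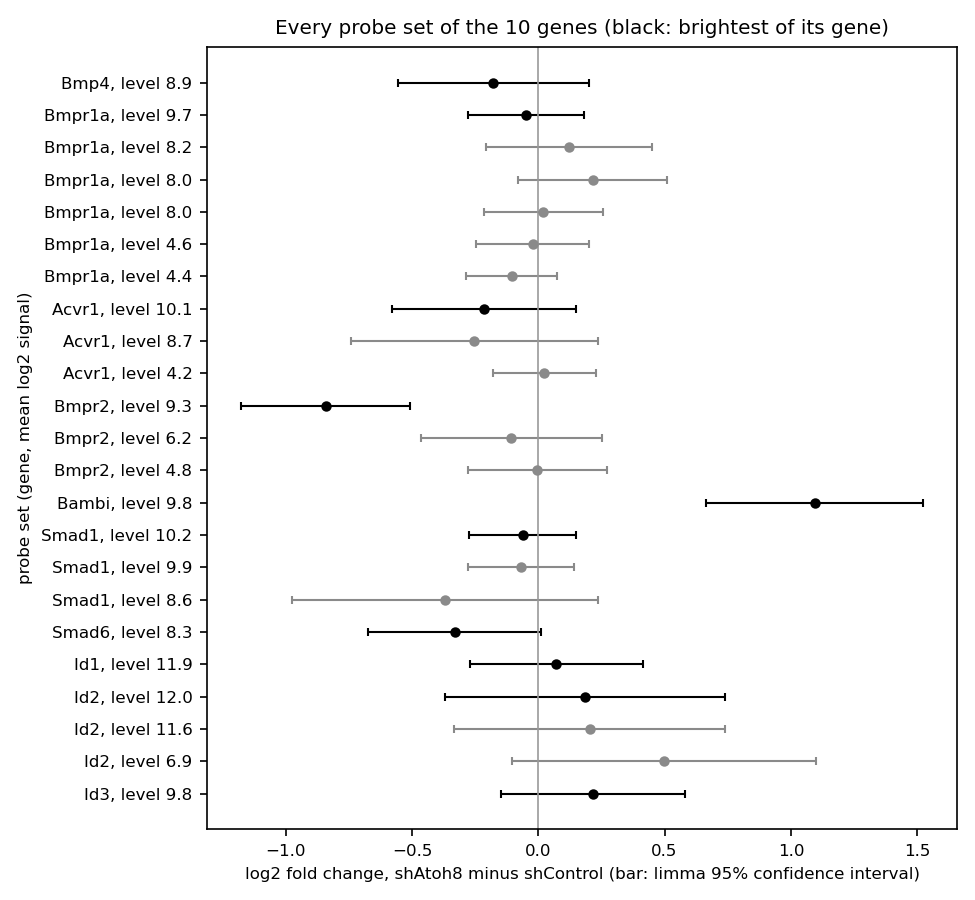
Log2 fold change of shAtoh8 against shControl (horizontal axis) with limma's 95% confidence interval for all 23 probe sets of the 10 genes, each labelled with its gene and mean log2 signal, the brightest of a gene in black. Only the intervals of Bambi and of the brightest Bmpr2 probe set lie clear of 0.

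Upstream sequence was read for 8 of the 10 genes (all but Bambi and Id1), as the 250 bases before the RefSeq gene start (GRCm38.p6). It was searched on both strands for GGCGCC, a GC-rich word bound by BMP-activated SMADs, for GTCTAGAC, the palindromic SMAD element, and for CANNTG, the E-box bound by helix-loop-helix factors; each word is its own reverse complement. GGCGCC was present once in 3 of the 8, the receptors Bmpr2 and Bmpr1a and the target Id2, and in 9.59% of 32851 promoters. These 3 are shown because they carry the word, which is in capitals, and lie at chr1:59764029-59764278 (plus strand), chr14:34502547-34502796 (minus strand) and chr12:25096093-25096342 (minus strand).
Bmpr2: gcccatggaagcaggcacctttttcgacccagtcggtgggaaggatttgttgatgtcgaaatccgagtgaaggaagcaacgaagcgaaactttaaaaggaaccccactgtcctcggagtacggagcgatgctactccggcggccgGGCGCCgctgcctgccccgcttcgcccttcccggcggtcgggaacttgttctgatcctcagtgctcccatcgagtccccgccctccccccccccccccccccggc
Bmpr1a: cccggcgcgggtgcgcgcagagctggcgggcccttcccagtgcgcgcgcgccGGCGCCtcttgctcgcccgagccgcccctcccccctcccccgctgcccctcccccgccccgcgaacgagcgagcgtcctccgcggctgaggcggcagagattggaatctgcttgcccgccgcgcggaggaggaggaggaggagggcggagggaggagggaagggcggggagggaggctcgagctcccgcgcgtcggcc
Id2: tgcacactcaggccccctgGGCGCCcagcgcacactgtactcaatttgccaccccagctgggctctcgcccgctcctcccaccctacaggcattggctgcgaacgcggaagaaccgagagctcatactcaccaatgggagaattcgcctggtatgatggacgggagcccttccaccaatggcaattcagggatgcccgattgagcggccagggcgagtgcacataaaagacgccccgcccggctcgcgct
The word begins 105 bases before the start in Bmpr2, 198 in Bmpr1a and 231 in Id2. Of these genes Bmpr2 read -0.84, Bmpr1a -0.05 and Id2 0.18 on their main probe sets. A link between the word and a fold change was not tested. GTCTAGAC was in none of the 8 windows (0.167% of all promoters). The E-box was in those of Bmp4, with 3 matches, and Id2, with 1, and in 66.2% of all promoters. These matches describe the letters of this window alone.

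The rest of the pathway was read from 70 other genes grouped by role, of which 65 had a main probe set. None passed in limma without the block (0, with 6 at an unadjusted p under 0.05, where 17.5% of all genes were). Their median fold change was -0.00, with 31 positive and 34 negative. With the block 2 fell and 0 rose, among 65 genes where 4.67% of all genes passed. Both, Bmper and Gata3, are named here because they are the whole of that count. The groups did not overlap for 9 of the 65, where they did not for 24.0% of all genes.

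Among the ligands (9 measured of 12) 0 passed, and values lay between -0.12 and 0.23. Bmp2, which shares its receptors with Bmp4, was the highest of them at 0.23 ± 0.17 (SE, adjusted p = 0.657). The 8 other receptors and co-receptors lay between -0.12 and 0.12, with 0 passing.

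Of the 13 measured extracellular antagonists and modulators, Bmper, a secreted protein that binds BMPs, had the lowest value. It read 4.95, 4.76 and 5.98 in shAtoh8, against 5.84, 5.64 and 7.41 in shControl. Replicate 3 was highest in each group, so the groups overlapped, while the pairs differed by -0.89, -0.88 and -1.43. The fold change of -1.07 ± 0.50 (SE) passed with the block (limma adjusted p = 0.424 without it and 0.0242 with it). The call was lost with the block as a random effect, at an estimated correlation (adjusted p = 0.208). Nbl1, a secreted BMP antagonist, read 8.33, 8.47 and 8.42 in shAtoh8, against 8.48, 8.71 and 8.70 in shControl (-0.23 ± 0.10, adjusted p = 0.356).

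None of the 19 SMADs and intracellular regulators passed, with or without the block, and 4 had an unadjusted p under 0.05 with it, where 22.6% of all genes did. Ppm1a, a phosphatase that removes the activating phosphates of SMADs, read 10.62, 10.66 and 10.64 in shAtoh8, against 10.34, 10.32 and 10.28 in shControl. The groups did not overlap and each was tight, and the difference of 0.33 ± 0.07 (SE) had a limma adjusted p of 0.0964 (0.0875 with the block). It passed with the block as a random effect (0.0439). All 7 of its other probe sets were positive, between 0.02 and 0.55. Smad7, the inhibitory SMAD that also acts on TGF-beta receptors, read 8.66, 8.83 and 8.88 in shAtoh8, against 8.96, 9.32 and 9.13 in shControl (-0.35 ± 0.12, adjusted p = 0.236, and 0.0998 with the block). Its other probe set read -0.03. Lemd3, an inner nuclear membrane protein that binds receptor-regulated SMADs, read 8.13, 8.11 and 8.13 in shAtoh8, against 8.37, 8.35 and 8.39 in shControl (-0.24 ± 0.07, adjusted p = 0.184), with its other 2 probe sets at 0.26 and -0.21.

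Among 13 other genes known as BMP targets, Gata3, a zinc-finger transcription factor, fell with the block. It read 4.37, 4.47 and 4.55 in shAtoh8, against 4.82, 5.14 and 5.42 in shControl, without overlap. All of these values are below the array medians. The fold change was -0.66 ± 0.15 (SE; limma adjusted p = 0.105 without the block and 0.0361 with it). The other 12 did not pass, and 9 of the 13 had a positive value. Id4, the remaining Id gene, was dim and read 0.04 ± 0.13.

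Of the 3 E proteins that Id proteins bind, Tcf3 read 9.85, 9.62 and 9.45 in shAtoh8, against 10.18, 9.89 and 10.09 in shControl. The groups did not overlap, and the difference of -0.41 ± 0.13 (SE) did not pass on the main probe set (limma adjusted p = 0.197, and 0.0928 with the block). The other 2 Tcf3 probe sets read -0.51 and -0.52 and passed with the block (0.0434 and 0.0409), not without it (0.169 and 0.0975). Tcf4 read 0.24 ± 0.16 and Tcf12 0.02 ± 0.08. The other Tcf4 probe sets were all positive, between 0.07 and 0.40, and those of Tcf12 lay between -0.0020 and 0.19. The Tcf4 probe set at 0.40 did not pass (limma adjusted p = 0.1575, and 0.0769 with the block).

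**Figure D4:**
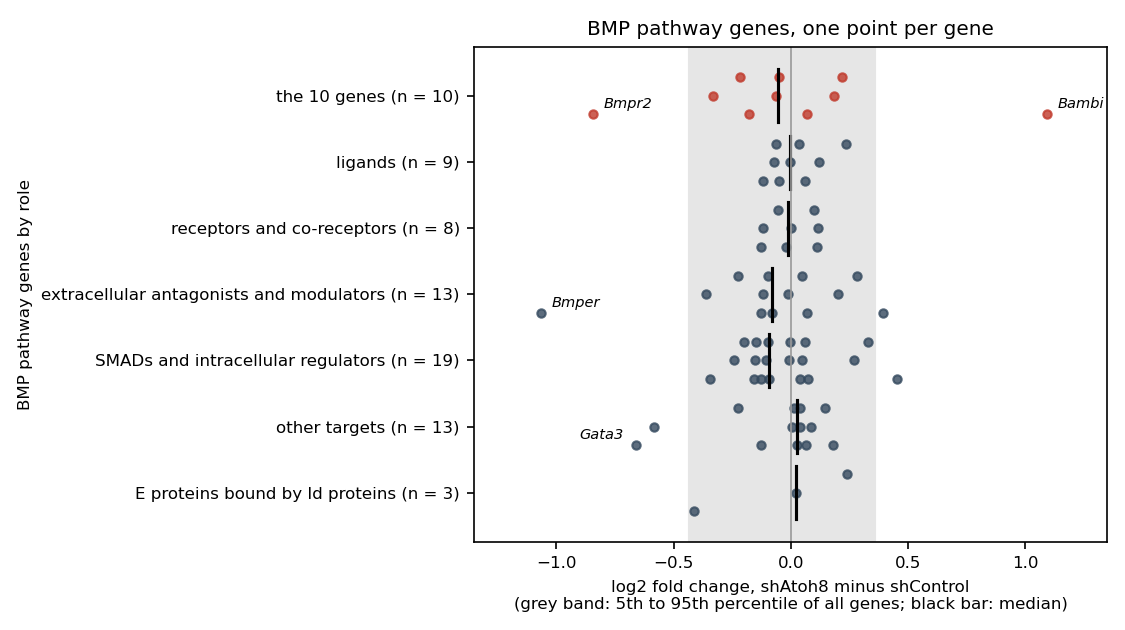
Log2 fold change of shAtoh8 against shControl (horizontal axis) for the 10 genes (red) and the other 65 pathway genes by role (blue), 1 point per gene, with the median of each role as a black bar and the 5th to 95th percentile of all genes, -0.43 to 0.36, as a grey band. Bambi and Bmpr2 lie outside the band among the 10, and Bmper and Gata3 are among those outside it in the rest.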

How the data were processed

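The authors deposited a table of log2 signals, 1 per probe set and array, made with RMA in affy, per the submitters' processing notes, which name no version. RMA corrects background, quantile-normalises arrays and summarises probes, so a shift of most genes one way would have been removed. The table held 45101 probe sets; 64 controls were left out. Gene names came from the platform annotation (34945 probe sets with 1 symbol, 932 with several, 9160 with none).

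shAtoh8 was compared with shControl in limma 3.58.1 (R 4.3.3; lmFit and eBayes, with 4 residual degrees of freedom and a prior of 3.30). Two-sided p-values were adjusted by Benjamini-Hochberg over 45037 probe sets, with a threshold of 0.05, with no brightness filter. Each group has 3 arrays, which limits the precision. The labels call the replicates independent experiments. Deviations from group means correlated at 0.407, 0.187 and 0.433 between arrays of the same number (-0.351 to 0.0292 otherwise). The main fit did not use this pairing, and SEs and confidence intervals come from it unless the block is named. A second fit, blocked on the replicate number, took same-numbered arrays as pairs. It stands beside the results whose call it altered and beside some others. The fits were tested on simulated data without a replicate effect, so the block was not tested on paired values.

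The 10 genes and the lists were chosen with earlier results of these data known. Named were all 10, the label checks Atoh8 and Neurog3, the 6 pathway genes with the smallest unadjusted p, and the 3 profiles most like that of the gene among the 10 with the smallest p. Members of small counts, and genes named for a role or as the highest or lowest of a list, were chosen after their values were seen. Upstream sequences are RefSeq's, without the bases after the gene start.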

Additional observations from a re-analysis of the deposited data

How the results depend on the processing

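The alternatives covered pairing, normalization, centring, scaling, brightness, the variance model, array weights, probe sets, thresholds and left-out arrays. The median fold change of all probe sets was 0.01 as deposited and -0.01 to 0.04 under the 3 scalings. Of the 10 genes, 0 were called without pairing, 2 (Bambi and Bmpr2) with the replicate block, with the block as a random effect, with brighter probe sets alone, with trend and robust variance, with array weights, with 1 probe set per gene and at a threshold of 0.1, and 1 (Bambi) after a second quantile normalization, after scaling to the 75th percentile and when the probe sets of a gene were averaged. With array medians subtracted, at a threshold of 0.01 and with a minimum fold of 1.2, 0 were called. With arrays left out, pairs included, 0 to 2 were called; with 1 array left out Smad1 ranged from -0.12 to -0.0032, Smad6 from -0.44 to -0.22 and Id3 from 0.07 to 0.38. Over 19 alternatives Bambi ranged from 0.88 to 1.27 and Bmpr2 from -1.04 to -0.32, the last as the mean of its probe sets.

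Of the 65 pathway genes 0 were called without pairing, 2 with the replicate block (Bmper and Gata3), 2 with it as a random effect (Ppm1a and Gata3) and 1 at a threshold of 0.1 (Ppm1a). With arrays left out 0 to 5 were called, the 5 without replicate 2 under the block (Bmper, Gata3, Crim1, Fstl1 and Map3k7).

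The count over the whole table was 361, against 1541 with the replicate block, 1409 with it as a random effect, 543 among brighter probe sets, 579 with array weights, 557 genes with 1 probe set per gene, 1231 at a threshold of 0.1, 1 at 0.01, 35 with a minimum fold of 1.2, 0 to 191 with 1 array left out, and 0, 1779 and 0 without replicate 1, 2 or 3 in both groups under the block. Signs turned for Id1 with array weights (-1.71e-03) and for Bmpr1a as the mean of its probe sets (0.030). With 1 array left out Bmpr1a ranged from -0.10 to 0.026, Id1 from -0.10 to 0.16 and Id2 from -0.10 to 0.39, and without both replicate 3 arrays under the block they read 0.012, -0.11 and -0.024. The cause was not tested. In this balanced design the block cannot change a fold change. Of the 10 genes 4 to 6 had 1 direction in all 3 pairs under the scalings and the mean of probe sets. Signals below the table's median, as for Gata3 and the dim probe sets, limit what those values can show.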
